A study of Mus musculus with 4 samples.

Results

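Chromatin modifiers and remodelers were examined in mouse liver RNA, taking the autosomal protein-coding genes whose symbols start with Kdm, Hdac, Sirt, Chd or Kat and a digit, or with Kmt2, Kmt5 or Smarc, together with Tet1, Tet2, Tet3, Dnmt1, Dnmt3a, Dnmt3b, Ezh1 and Ezh2. This rule gave 77 genes of the 48709 counted. A further 6 genes of the same families were left out because they lie on chromosome X or Y. The 4 libraries came from untreated C57BL/6 mice aged 6 to 12 weeks. All of the mice carry the Ddi2 flox/flox alleles. The 2 WT mice lack Cre. The 2 DDI2-KO mice (labelled DDI2-/-) express Cre under the albumin promoter, which acts in hepatocytes. Which other cells of the liver keep the gene intact was not examined. The DDI2 protease cleaves NRF1, a transcription factor of proteasome genes, and so activates it. The study used mice of both sexes, and the labels do not give the sex of each library.

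Chromatin modifiers add or remove chemical groups on histone tails or on DNA, and remodelers use ATP to slide, eject or exchange nucleosomes. Acetyltransferases (Kat) and the Kmt2 methyltransferases are usually found at active genes, deacetylases (Hdac, Sirt) and the Ezh methyltransferases at silenced ones, and demethylases (Kdm) and TET enzymes reverse methylation of histones and of DNA. Most work inside large complexes, and several deacetylases are known for their part in hepatic glucose and lipid metabolism. Their transcripts tend to be long, so any bias of RNA sequencing with transcript length bears on them.

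Between 22501208 and 34109018 reads fell on genes in each library, and the 77 genes took between 0.179% and 0.192% of them. Levels are CPM, which are counts relative to a library size adjusted by TMM in edgeR. Ddi2 itself had 141.2 and 123.4 CPM in WT and 157 and 164 CPM in the libraries labelled DDI2-KO (log2 fold change 0.28, standard error (SE) 0.17 and adjusted p = 0.349 from edgeR). The whole-gene count was not lower, and it does not separate the floxed part of the gene, so it cannot check the labels. All 7 hepatocyte markers listed were detected, and none passed an adjusted p of 0.05. Their summed level was 159761 and 181066 CPM in WT and 150075 and 152054 CPM in the libraries labelled DDI2-KO. Of the 7, 4 had negative and 3 positive log2 fold changes. With these bulk samples, fewer cells of a type and less RNA per cell cannot be told apart.

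Of the 77 genes, 75 passed the filter on low counts. Chd5, which encodes a remodeler best known from brain and testis, was counted 0 and 1 times in WT and 0 and 2 times under the DDI2-KO label. Kdm4d was counted 3 and 3 times in WT and 0 and 2 times under the DDI2-KO label. Both lie at or under 3 counts in every library, so no fold is given.

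In the libraries labelled DDI2-KO, 3 chromatin genes fell against WT and none rose when p from quasi-likelihood testing in edgeR, adjusted over 13699 genes by Benjamini-Hochberg, had to be below 0.05. These were Kdm7a, Kat6b and Kmt2e, at 49.2%, 52.6% and 56.1% of the WT level. They make up 4% of the 75 genes, against 2.53% of all genes tested, of which 1.2% fell and 1.33% rose. Counted in both directions, the share called is near that of all genes. The share that fell, 4% against 1.2%, rests on 3 genes. The count depended on single libraries and on the test. It was 0 without WT library 1, 0 without WT library 2, 0 without library 1 labelled DDI2-KO and 5 without library 2 labelled DDI2-KO. It was also 0 under limma-voom, where 0.993% of all genes were called, and 5 under DESeq2, where 6.86% of all genes were called. At an unadjusted p under 0.05 from edgeR, 17 of the 75 were lower and 2 higher, against 11.5% lower and 12% higher over all genes tested.

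Kdm7a (ENSMUSG00000042599, chromosome 6 of GRCm38, 39136623 to 39206789, minus strand) encodes a demethylase that removes repressive methyl marks from histone H3. It had 22.1 and 20.6 CPM in WT and 8.73 and 12.3 CPM in the libraries labelled DDI2-KO. Both libraries labelled DDI2-KO lay well below both WT libraries, with a log2 fold change of -1.02 (SE 0.21 and adjusted p = 0.0472 from edgeR). Kat6b (ENSMUSG00000021767, chromosome 14, 21481434 to 21672478, plus strand) encodes an acetyltransferase of the MYST family that acetylates histone H3. It had 16 and 15.2 CPM in WT and 7.57 and 8.88 CPM in the libraries labelled DDI2-KO. The libraries of each group were close together, and the log2 fold change was -0.93 (SE 0.19 and adjusted p = 0.0472 from edgeR). Kmt2e (ENSMUSG00000029004, chromosome 5, 23434441 to 23504235, plus strand), which carries the Kmt2 family name, binds methylated histone H3 through a PHD finger. It had 50.6 and 41.9 CPM in WT and 27.04 and 24.85 CPM in the libraries labelled DDI2-KO. The groups did not overlap, and the log2 fold change was -0.83 (SE 0.17 and adjusted p = 0.0472 from edgeR). In Kmt2e, 12.7% of 50-base stretches are shared with other genes, the antisense neighbour Srpk2 first, so a small part of its count is uncertain.

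All 3 transcripts are long, with 9566 bases for Kdm7a, 7699 for Kat6b and 7317 for Kmt2e, against a median of 3416 bases over the other protein-coding genes tested. With offsets for transcript length alone their log2 fold changes were -0.84, -0.79 and -0.70, and the adjusted p from edgeR was 0.0648 for Kdm7a, 0.0660 for Kat6b and 0.0720 for Kmt2e, above the threshold. With offsets for length and GC content it was 0.0439, 0.0308 and 0.0439, and the log2 fold changes were -0.67, -0.90 and -0.77. The direction of all 3 was the same in all 17 alternatives. None of the 3 was called under limma-voom, limma-trend, scaling by library totals only or without robust estimation.

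CpG is the dinucleotide that DNA methyltransferases and TET enzymes act on. Sequences before an annotated transcription start, which need not be the outermost start of the gene, are shown for Kat6b and Kdm7a because both genes passed the test. Each is the 250 bases before a RefSeq start in GRCm38.p6, 5′ to 3′, with CpG in capitals. The Kat6b sequence is chr14:21499520-21499769 on the plus strand and holds 27 CpG. It lies inside the annotated gene, which starts at 21481434. A second Kat6b window, chr14:21499535-21499784, holds 29 CpG and is not printed. The Kdm7a sequence is chr6:39206774-39207023 on the minus strand and holds 56 CpG. Of its bases, 16 overlap an annotated exon of the gene. Kmt2e has no entry. Tet2, the member with the lowest log2 fold change, which did not pass the test, is shown beside them from chr3:133544391-133544640 on the minus strand, with 51 CpG. The Tet2 window also lies inside the annotated gene, which reaches 133545139.
Kat6b: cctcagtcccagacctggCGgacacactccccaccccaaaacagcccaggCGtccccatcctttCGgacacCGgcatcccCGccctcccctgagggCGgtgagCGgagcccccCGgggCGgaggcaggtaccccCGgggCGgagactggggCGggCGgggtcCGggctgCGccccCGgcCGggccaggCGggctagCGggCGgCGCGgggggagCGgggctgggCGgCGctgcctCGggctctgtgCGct
Kdm7a: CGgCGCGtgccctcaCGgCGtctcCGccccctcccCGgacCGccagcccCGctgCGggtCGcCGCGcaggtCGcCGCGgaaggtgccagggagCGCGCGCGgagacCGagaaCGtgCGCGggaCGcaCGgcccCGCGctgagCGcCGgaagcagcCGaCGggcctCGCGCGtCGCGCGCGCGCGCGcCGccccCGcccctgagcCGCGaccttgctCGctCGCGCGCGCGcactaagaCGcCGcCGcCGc
Tet2: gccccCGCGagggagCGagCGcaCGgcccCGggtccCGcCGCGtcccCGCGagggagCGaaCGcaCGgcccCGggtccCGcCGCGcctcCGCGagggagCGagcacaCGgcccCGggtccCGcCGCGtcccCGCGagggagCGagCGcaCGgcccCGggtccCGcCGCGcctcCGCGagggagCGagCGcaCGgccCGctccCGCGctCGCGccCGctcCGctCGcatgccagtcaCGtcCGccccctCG
The RefSeq table holds starts for 59 of the 75 genes. Over their 85 windows the median was 19 CpG in 250 bases and the upper quartile 27. The median was 15 over 12906 windows of the protein-coding genes tested. The core of the antioxidant response element, to which NRF1 and NRF2 bind, was searched as TGACNNNGC on both strands. It was in none of the sequences shown for Kat6b, Kdm7a and Tet2, nor in the second Kat6b window. It was found at 16.9% of the 59 genes, against 13.8% of the protein-coding genes tested that matched and 11.5% of all genes in the table. Per window it was found in 12.9% of the 85 windows, against 11.5% of the 12906 windows and 10.2% of all windows.

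**Figure D1:**
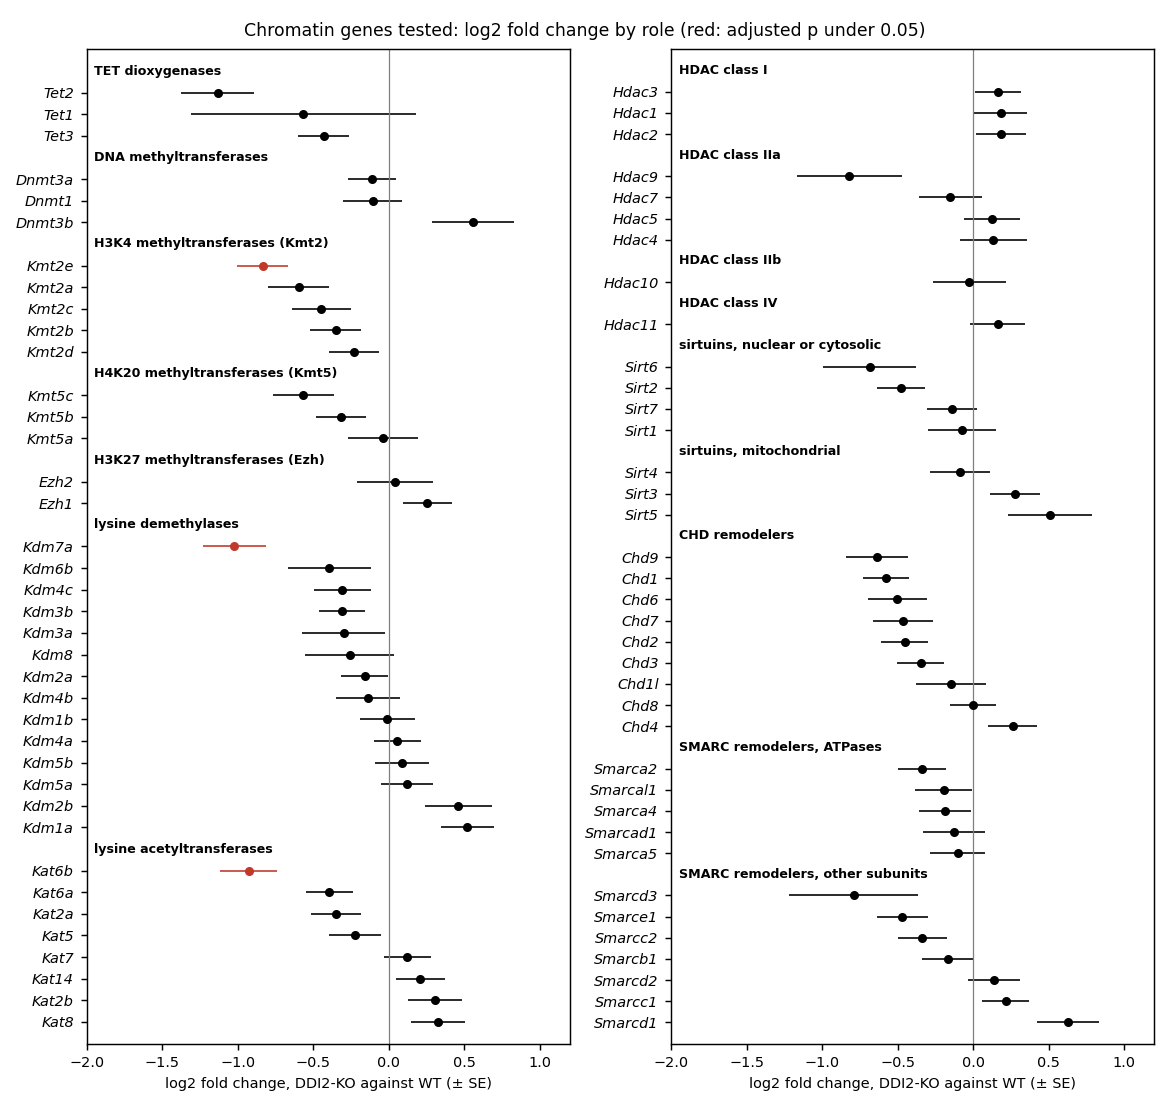
log2 fold change (x axis, libraries labelled DDI2-KO against WT, with its standard error as the bar) of the 75 chromatin genes tested, by role. The 3 genes with an adjusted p under 0.05 are in red. All Kmt2, Kmt5, TET and SMARC ATPase genes lie left of 0, and the class I deacetylases lie right of it.

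Among the enzymes acting on DNA methylation, the TET dioxygenases oxidize methylcytosine, the first step of its removal. Tet2 had 12.7 and 11.1 CPM in WT and 4.40 and 6.48 CPM in the libraries labelled DDI2-KO. The groups did not overlap and the fitted level was 45.6% of WT, but the log2 fold change of -1.13 (SE 0.24) had an adjusted p = 0.0516 from edgeR, just above the threshold. Its adjusted p ranged from 0.000819 to 0.199 over 17 alternatives and was under 0.05 in 6 of them. Tet3 was the TET gene with the highest level per kilobase of transcript. It had 18.0 and 20.4 CPM in WT and 14.8 and 13.7 CPM in the libraries labelled DDI2-KO (log2 fold change -0.43, adjusted p = 0.182 from edgeR). Tet1, counted 16 and 6 times in WT and 3 and 8 times under the DDI2-KO label, was close to the limit of detection. Among the DNA methyltransferases, Dnmt1, which copies methylation after replication, had 13.4 and 15.6 CPM in WT and 15.03 and 11.97 CPM in the libraries labelled DDI2-KO, so the groups overlapped. Dnmt3b, a de novo methyltransferase, had 2.77 and 2.14 CPM in WT and 3.63 and 3.61 CPM in the libraries labelled DDI2-KO (log2 fold change 0.56, adjusted p = 0.255 from edgeR). Of the 50-base stretches in Dnmt3b, 11.5% are shared with other genes, Dnmt3c first among them.

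The genes named Kmt2 all had negative log2 fold changes, from -0.83 to -0.23, and only Kmt2e passed the test. Kmt2a, Kmt2c and Kmt2d, the longest transcripts of the 77 genes, have 16470, 14967 and 19823 bases. Kmt2a, whose product maintains Hox gene expression, had 23.8 and 20.3 CPM in WT and 12.4 and 16.8 CPM in the libraries labelled DDI2-KO. Its groups did not overlap (log2 fold change -0.59, adjusted p = 0.133 from edgeR). Kmt2c and Kmt2d encode the methyltransferases of enhancers. Kmt2c had 27.4 and 27.8 CPM in WT and 17.04 and 23.5 CPM in the libraries labelled DDI2-KO (log2 fold change -0.44, adjusted p = 0.213 from edgeR). Kmt2d had 18.1 and 17.7 CPM in WT and 14.9 and 15.6 CPM in the libraries labelled DDI2-KO. The groups did not overlap, but the log2 fold change of -0.23 turned to 0.16 with length offsets and 0.29 with length and GC offsets. The 3 Kmt5 genes, for methylation of histone H4, had log2 fold changes from -0.57 to -0.038. Kmt5a had the highest level per kilobase of these, and its WT libraries at 23.8 and 38.3 CPM enclosed the 28.4 and 32.0 CPM of the libraries labelled DDI2-KO. Ezh1, the Polycomb methyltransferase of resting cells, had 19.8 and 18.4 CPM in WT and 22.1 and 23.5 CPM in the libraries labelled DDI2-KO (log2 fold change 0.26, adjusted p = 0.379 from edgeR).

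Lysine demethylases gave 14 tested genes, 9 with negative and 5 with positive log2 fold changes, of which Kdm7a alone passed the test. Kdm2a, which binds unmethylated CpG, had the highest level per kilobase of them, with 75.01 and 68.0 CPM in WT and 61.6 and 66.6 CPM in the libraries labelled DDI2-KO. These groups lay close together (log2 fold change -0.16, adjusted p = 0.589 from edgeR). Kdm1a, also known as LSD1, a flavin-dependent demethylase, had 12.4 and 14.0 CPM in WT and 17.85 and 19.97 CPM in the libraries labelled DDI2-KO. Both of its libraries labelled DDI2-KO lay above WT, with a log2 fold change of 0.52 (SE 0.18 and adjusted p = 0.130 from edgeR). Kdm2b, which recruits a Polycomb complex to CpG islands, had 4.64 and 4.08 CPM in WT and 5.80 and 6.22 CPM in the libraries labelled DDI2-KO (log2 fold change 0.46, adjusted p = 0.251 from edgeR). Here 23.8% of 50-base stretches are shared with other genes, Rnf34 first.

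Lysine acetyltransferases were divided, 4 with negative and 4 with positive log2 fold changes. Kat6b was the one that passed the test. Kat2b, also known as PCAF, was by far the most abundant, with 95.7 and 97.2 CPM in WT and 105 and 133 CPM in the libraries labelled DDI2-KO. The groups did not overlap, but the libraries labelled DDI2-KO differed from each other by more than the groups did at their nearest (log2 fold change 0.31, adjusted p = 0.337 from edgeR). Kat8, an acetyltransferase of histone H4, has the shortest transcript of the 77, with 1579 bases. It had 11.7 and 13.7 CPM in WT and 16.1 and 15.6 CPM in the libraries labelled DDI2-KO (log2 fold change 0.33, adjusted p = 0.306 from edgeR).

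None of the 9 histone deacetylases passed the test. The class I genes Hdac1, Hdac2 and Hdac3 are the catalytic subunits of the NuRD, Sin3 and NCoR corepressor complexes, and their log2 fold changes lay between 0.16 and 0.19. The Hdac1 count is uncertain, since other genes, Gm10093 first, share 58.7% of its 50-base stretches. Hdac3, the most abundant of them per kilobase, had 41.7 and 39.2 CPM in WT and 44.3 and 46.2 CPM in the libraries labelled DDI2-KO (log2 fold change 0.16, adjusted p = 0.563 from edgeR). Of the class IIa genes, which shuttle between nucleus and cytoplasm, Hdac5 had 23.8 and 18.5 CPM in WT and 24.3 and 21.8 CPM in the libraries labelled DDI2-KO. Hdac9 was much lower in level, with 3.03 and 2.14 CPM in WT and 1.198 and 1.74 CPM in the libraries labelled DDI2-KO. Its groups did not overlap (log2 fold change -0.82, SE 0.35 and adjusted p = 0.206 from edgeR). Hdac11, the class IV deacetylase, had 60.5 and 65.5 CPM in WT and 80.4 and 60.5 CPM in the libraries labelled DDI2-KO. These groups overlapped, and other genes share 22.8% of its 50-base stretches. Hdac10, of class IIb, had 8.39 and 7.12 CPM in WT and 8.96 and 6.27 CPM in the libraries labelled DDI2-KO, so that one library of the latter lay on each side of WT.

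Sirtuins are deacylases that consume NAD. The 4 nuclear or cytosolic members had log2 fold changes from -0.69 to -0.074 and none passed the test. Sirt2, mostly cytosolic and known for deacetylating tubulin, had 60.9 and 63.3 CPM in WT and 47.9 and 41.2 CPM in the libraries labelled DDI2-KO. The groups did not overlap, and the log2 fold change was -0.48 (SE 0.16 and adjusted p = 0.124 from edgeR). With length and GC offsets its adjusted p was 0.0385. Sirt6, a nuclear deacylase of histone H3, had 2.29 and 2.78 CPM in WT and 1.62 and 1.52 CPM in the libraries labelled DDI2-KO (log2 fold change -0.69, adjusted p = 0.220 from edgeR). Both transcripts are short, with 2117 and 1891 bases, unlike the 3 genes that fell. The mitochondrial members act on metabolic enzymes rather than chromatin and share only the family name. Sirt3, the main mitochondrial deacetylase, had 57.3 and 60.1 CPM in WT and 77.9 and 64.4 CPM in the libraries labelled DDI2-KO (log2 fold change 0.28, adjusted p = 0.347 from edgeR). Exons of the antisense neighbours Psmd13 and Ric8a overlap 12.7% of its exon bases, so a part of its count is uncertain. Sirt5, which removes succinyl and malonyl groups, had 9.61 and 8.25 CPM in WT and 16.2 and 9.18 CPM in the libraries labelled DDI2-KO, so that only 1 of the latter stood above WT, and other genes share 36.9% of its 50-base stretches. Sirt4, with 1794 bases, had 7.85 and 7.35 CPM in WT and 7.34 and 6.96 CPM in the libraries labelled DDI2-KO.

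Of the 9 CHD remodelers tested, 8 had negative log2 fold changes and none passed the test. Chd3, an ATPase of the NuRD complex and the most abundant of them per kilobase, had 95.2 and 90.1 CPM in WT and 75.3 and 70.3 CPM in the libraries labelled DDI2-KO. Its groups did not overlap, and the log2 fold change was -0.35 (SE 0.16 and adjusted p = 0.227 from edgeR). Chd9, with a transcript of 12008 bases, had 26.7 and 27.2 CPM in WT and 14.2 and 20.5 CPM in the libraries labelled DDI2-KO. Here the WT libraries were nearly equal and those labelled DDI2-KO were spread out (log2 fold change -0.64, SE 0.20 and adjusted p = 0.118 from edgeR).

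SMARC genes encode subunits of the BAF and PBAF complexes and related ATPases. All 5 ATPase genes had negative log2 fold changes, from -0.34 to -0.10, though Smarca5 shares 35.3% of its 50-base stretches with other genes. Smarca2, the ATPase BRM, had 68.3 and 66.0 CPM in WT and 57.7 and 48.4 CPM in the libraries labelled DDI2-KO (log2 fold change -0.34, adjusted p = 0.244 from edgeR). Among the other subunits, Smarcc2, a scaffold of the complex, had 99.0 and 94.0 CPM in WT and 81.8 and 71.0 CPM in the libraries labelled DDI2-KO (log2 fold change -0.34, adjusted p = 0.255 from edgeR). The alternative subunits Smarcd1 and Smarcd3, of which a BAF complex holds one, had values of opposite sign. Smarcd1 had 8.30 and 6.99 CPM in WT and 12.8 and 10.8 CPM in the libraries labelled DDI2-KO, the highest log2 fold change of the 75 genes at 0.62 (SE 0.21 and adjusted p = 0.123 from edgeR). Smarcd3 had 0.952 and 1.46 CPM in WT and 0.811 and 0.566 CPM in the libraries labelled DDI2-KO (log2 fold change -0.79, SE 0.43 and adjusted p = 0.301 from edgeR). The Smarcd3 count is uncertain, since other genes, the antisense neighbour Chpf2 first, share 61.4% of its 50-base stretches. Neither passed the test, and the difference between them was not tested.

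**Figure D2:**
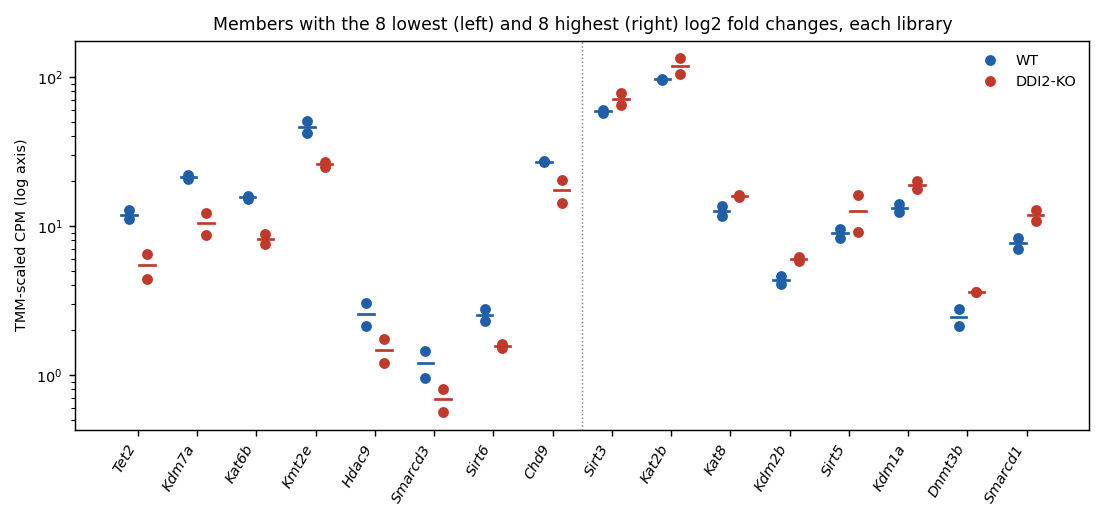
TMM-scaled CPM (y axis, log scale) in each WT library (blue) and each library labelled DDI2-KO (red) for the members with the 8 lowest and the 8 highest log2 fold changes, with a bar at the mean of 2. Sirt5 is the gene among these 16 whose groups overlap.

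As a list, the 75 genes had a median log2 fold change of -0.15, with 51 lower and 24 higher in the libraries labelled DDI2-KO. Over the 13699 genes tested the median was -0.015 and 51.3% were lower, and over the 12719 protein-coding genes tested the median was 0.0065 and 49.4% were lower. Both libraries labelled DDI2-KO lay below both WT libraries in 34 of the 75 genes, or 45.3%, against 27.7% of all genes tested. They lay above both in 16, or 21.3%, against 28% of all genes. The list median was negative in all alternatives, from -0.23 to -0.096.

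A second list held 101 other chromatin genes, among them Polycomb, BAF, NuRD and Sin3 subunits, further histone and arginine methyltransferases, bromodomain proteins and cohesin subunits. Of these, 64 had negative and 37 positive log2 fold changes, with a median of -0.080. There were 2 past an adjusted p of 0.05, or 1.98%. They are named here after their values were seen. Atrx, a remodeler of heterochromatin on chromosome X, fell, with 48.2 and 35.5 CPM in WT and 22.3 and 20.8 CPM in the libraries labelled DDI2-KO (log2 fold change -0.96, adjusted p = 0.0459 from edgeR). Rbbp4, a histone-binding subunit shared by NuRD, Sin3 and Polycomb complexes, rose, with 69.7 and 77.6 CPM in WT and 129 and 124 CPM in the libraries labelled DDI2-KO (log2 fold change 0.78, adjusted p = 0.0489 from edgeR). The count for this list was 0 under limma-voom, where 0.993% of all genes were called. It also changed with some single libraries left out.

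Transcript length was then taken into view, using the longest annotated transcript of each gene. That transcript need not be the one expressed in these livers, which was not examined. The 75 genes had a median length of 5168 bases, against 3416 for the other 12644 protein-coding genes tested, and a median of 21 exons against 8. Their median GC content was 51.2% against 49.5%, and their median level per kilobase in WT was 3.68 against 3.72 CPM per kb. They thus stood apart in length and exon number but not in level per kilobase.

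Across the 12719 protein-coding genes, which are not independent replicates and share their libraries, log2 fold change and length gave a Spearman rho of -0.180, and across the 75 chromatin genes -0.418. Libraries of one group also differed along length. Library 2 against library 1 labelled DDI2-KO gave 0.198 over the protein-coding genes and 0.390 over the chromatin genes, and WT library 2 against library 1 gave -0.0637 and -0.186. GC content separated the libraries labelled DDI2-KO more than length did, with -0.504 over the protein-coding genes and -0.644 over the chromatin genes for library 2 against library 1. The comparison of genotypes gave 0.0258 and 0.0741 with GC content.

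**Figure D3:**
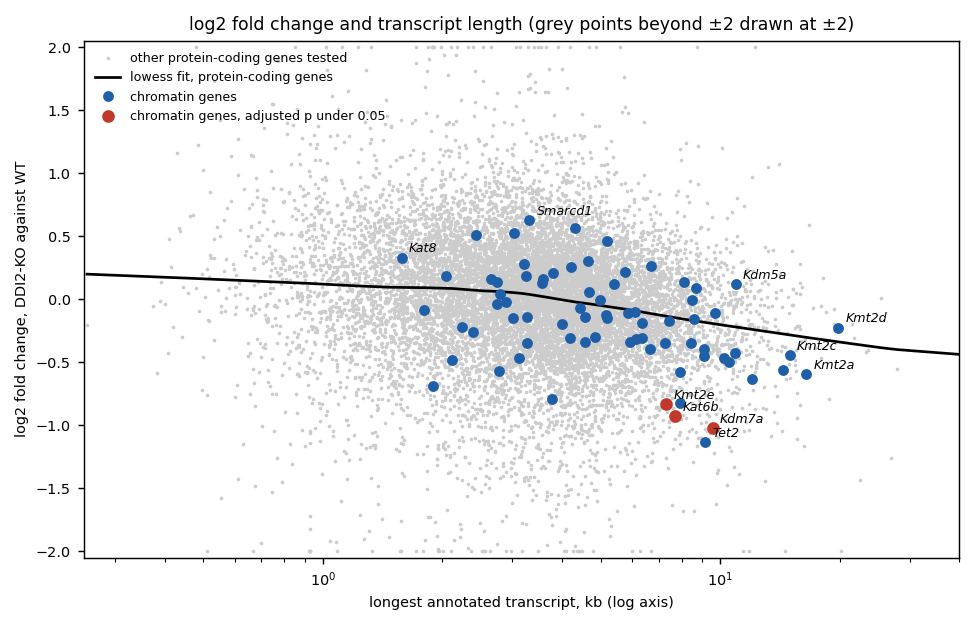
log2 fold change (y axis) against the length of the longest annotated transcript in kb (x axis, log scale) for the chromatin genes (blue, and red where the adjusted p was under 0.05), other protein-coding genes (grey) and the lowess fit over protein-coding genes (black). The fit declines with length, and Kmt2e, Kat6b, Kdm7a and Tet2 lie below it.

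The 75 genes were set in order of length. The 25 longest, from 7261 to 19823 bases, had a median log2 fold change of -0.44, with 22 lower and 3 higher, and held all 3 genes that fell. The middle 25, from 3801 to 6697 bases, had a median of -0.11, with 16 lower and 9 higher. The 25 shortest, from 1579 to 3774 bases, had a median of -0.025, with 13 lower and 12 higher. Negative values were thus concentrated among the long transcripts, while the short ones were nearly balanced.

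A lowess fit of log2 fold change on length over the protein-coding genes gave a fitted median of -0.057 for the 75 genes. Relative to the fit their median was -0.099, with 47 below and 28 above it. The median relative to the fit was -0.21 for the 25 longest, -0.047 for the middle 25 and -0.081 for the 25 shortest. Tet2 lay -0.95 from the fit, Kdm7a -0.83, Smarcd3 -0.80, Kat6b -0.78, Sirt6 -0.78 and Kmt2e -0.70. At the other end, Smarcd1 and Dnmt3b lay 0.59 and 0.58 above it. Among the 3 longest transcripts, Kmt2a lay -0.29 and Kmt2c -0.16 from the fit, while Kmt2d lay 0.11 above it.

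All protein-coding genes tested were also put in 5 length classes of equal number. The class from 5282 bases upwards held 35 of the chromatin genes. Their median log2 fold change was -0.35, with 29 lower, against -0.12 and 63.0% lower for the 2508 other genes of the class. Within this class the chromatin genes were longer, with a median of 8469 against 6777 bases, and 25 of the 35 lay below the fit on length. The class held the 3 chromatin genes that fell. Of its other genes 1.44% were called in either direction, and 1.12% were called lower. With length offsets the medians were -0.21 and 0.0048, and with length and GC offsets -0.25 and -0.0047. The other classes held 3, 11, 12 and 14 chromatin genes, from short to long, and their medians of -0.088, -0.025, 0.14 and -0.10 followed no steady order. No test of the list was made, so these values describe the 75 genes and do not set them apart from other genes.

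**Figure D4:**
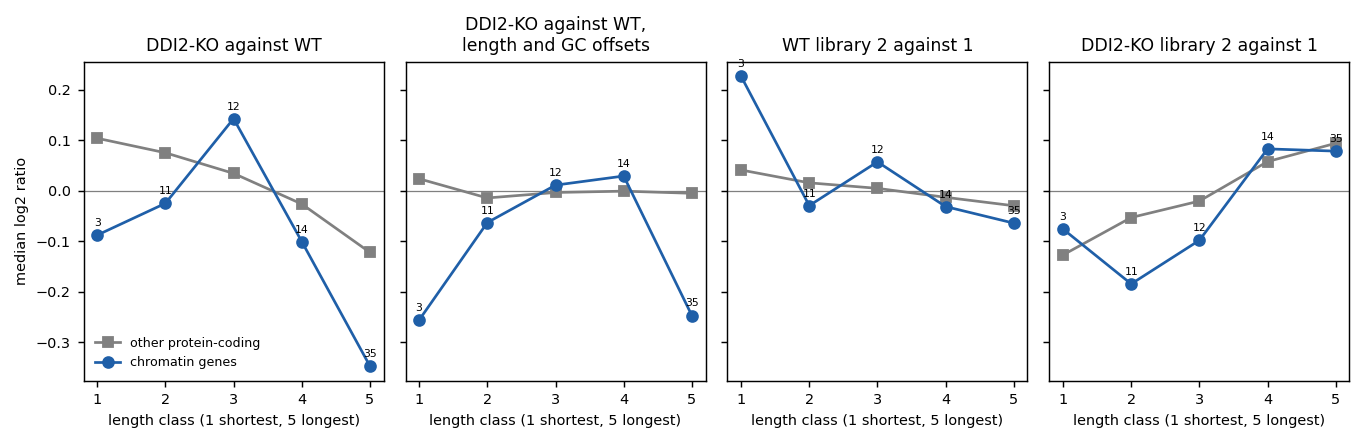
Median log2 ratio (y axis) in 5 classes of transcript length (x axis, 1 the shortest) for chromatin genes (blue, with their number) and other protein-coding genes (grey). In the longest class the chromatin genes lay at -0.35 without offsets and -0.25 with length and GC offsets, and at 0.079 for library 2 against library 1 labelled DDI2-KO.

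Levels of the genes relative to each other were compared per kilobase of the longest transcript. Sirt2 had the highest level in WT, 28.8 and 29.9 CPM per kb, followed by Hdac11 at 22.8 and 24.7, Smarcc2 at 21.7 and 20.6, Kat2b at 20.6 and 20.9, Smarcd2 at 19.7 and 17.8 and Sirt3 at 17.9 and 18.7. Hdac11 and its neighbours Smarcc2 and Kat2b lay close together, and the ranges of Smarcc2 and Kat2b overlapped. The same 6 genes were the highest in the libraries labelled DDI2-KO, where Hdac11 had 30.3 and 22.8 CPM per kb, Kat2b 22.6 and 28.7 and Sirt2 22.6 and 19.4. The ranges of Hdac11 and Kat2b overlapped there. Sirt3 at 24.3 and 20.1 CPM per kb and Smarcd2 at 23.0 and 18.3 reached into both ranges. No gene can thus be placed first. The lowest tested were Tet1, Smarcd3 and Hdac9, at 0.0233, 0.319 and 0.326 CPM per kb in WT. Kdm7a and Kat6b went from 2.23 and 2.03 CPM per kb in WT to 1.10 and 1.07 in the libraries labelled DDI2-KO, and Kmt2e from 6.32 to 3.55. Per-kilobase levels of genes whose shorter transcripts are the ones used are understated.

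**Figure D5:**
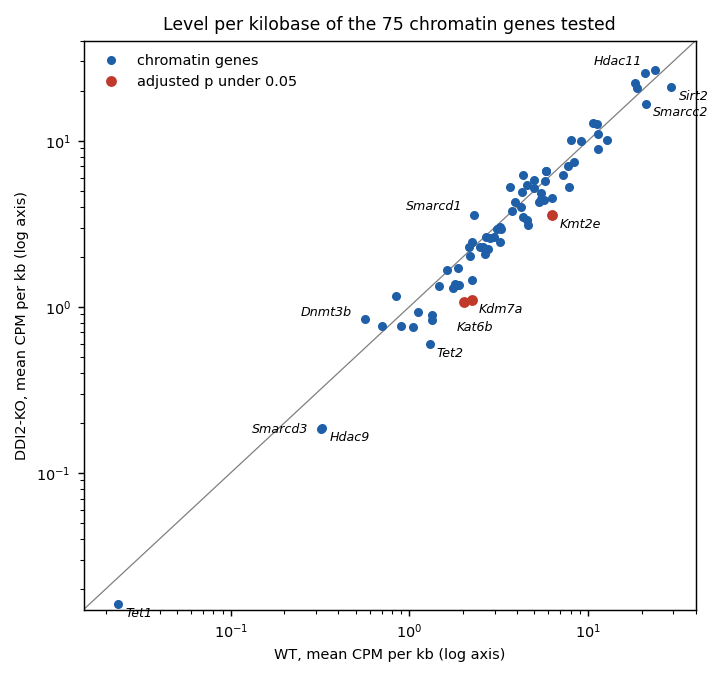
Mean CPM per kb of the longest transcript in WT (x axis) and in the libraries labelled DDI2-KO (y axis), both on log axes, for the 75 genes tested, with a line at equal levels. Most genes lie close to the line, and Kmt2e, Kdm7a, Kat6b and Tet2 lie below it.

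Other quantities moved with the same libraries. The nuclear RNAs Malat1 and Neat1 both fell (adjusted p = 0.0224 and 0.0438 from edgeR), with a summed level of 217 and 162 CPM in WT and 49.1 and 75.1 CPM in the libraries labelled DDI2-KO. Reads that the counting program assigned to no gene came to 5.11% and 4.70% for WT and 2.53% and 3.65% for DDI2-KO, relative to reads on genes. The share of mitochondrial genes among counted reads was 10.51% and 9.91% for WT but 5.27% and 6.34% for DDI2-KO. In all 3 measures library 1 labelled DDI2-KO was the lowest. Of the 8 members with the lowest log2 fold changes, Tet2, Kdm7a, Kat6b, Hdac9 and Chd9 were also lowest in that library, while Kmt2e, Smarcd3 and Sirt6 were lowest in library 2. Summed over 7 lymphocyte markers, the level was 29.2 and 30.1 CPM in WT and 22.1 and 25.6 CPM in the libraries labelled DDI2-KO, with none called. The 8 macrophage markers summed to 730 and 624 CPM in WT and 869 and 743 CPM in the libraries labelled DDI2-KO, with none called. The 8 endothelial markers summed to 569 and 489 CPM in WT and 543 and 511 CPM in the libraries labelled DDI2-KO, 4 with negative and 4 with positive log2 fold changes, of which Stab2 alone, named after its value was seen, passed the test (log2 fold change -1.10, adjusted p = 0.0288 from edgeR). None of the 7 stellate cell, 5 bile duct or 6 proliferation markers passed the test. All 7 stellate cell markers had negative log2 fold changes. They summed to 463 and 509 CPM in WT and 439 and 458 CPM in the libraries labelled DDI2-KO. The bile duct markers, 1 negative and 4 positive, summed to 56.4 and 52.8 CPM in WT against 70.4 and 68.7 under the DDI2-KO label. The proliferation markers, 4 negative and 2 positive, summed to 17.3 and 24.3 CPM in WT against 18.8 and 26.2 under the DDI2-KO label. Of the lymphocyte markers 5 were negative and 2 positive, and of the macrophage markers 2 were negative and 6 positive. No listed marker was at 0 in every library. The part of these quantities in the chromatin gene values was not tested.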

How the data were processed

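Liver mRNA of 2 WT and 2 DDI2-KO mice was sequenced as TruSeq Stranded mRNA libraries on an Illumina HiSeq. What the authors deposited are raw counts of reads for every Ensembl gene, not normalized. The submitters' processing notes name cutadapt 1.8, STAR 2.5.2b, HTSeq 0.6.1 and GRCm38. The annotation release and the strand setting of the counting are not given in the sources used here, so antisense overlaps are reported as uncertain. The counter's 5 summary lines were not used as genes. Coordinates, lengths and symbols are from GENCODE M21 of GRCm38, which matched 48349 of 48709 identifiers, and promoter sequences from RefSeq.

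Genotypes were compared with edgeR 4.0.16 in R 4.3.3 (TMM, filterByExpr, glmQLFit with robust estimation, glmQLFTest) over the whole table, with Benjamini-Hochberg adjustment. Standard errors are the log2 fold change divided by the square root of F. The study's methods name limma's moderated test without its settings. As alternatives limma 3.58.1 was run with voom, or with trend and a prior count of 2, as were DESeq2 1.42.0, other scalings and filters, a replicate block, leaving out each library, and lowess offsets (span 0.3) for transcript length and GC content. The edgeR, limma and DESeq2 fits were tested on simulated data.

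The gene rule and lists were chosen with earlier results of these data known. Values are given for members with an adjusted p under 0.05, the 8 highest and 8 lowest log2 fold changes, the highest level per kilobase in each role, the 3 longest and 3 shortest transcripts, members under the filter, and Ddi2. Counts of replicates differed beyond sampling noise, with a chi-square over its degrees of freedom of 48.5 in WT and 26.3 in DDI2-KO, so each library counts as 1 sample. The labels do not say whether replicates are separate litters, so p-values measure the spread between these mice. A level of 3 counts was 0.0880 to 0.133 CPM, a limit that covers counting error only.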

Additional observations from a re-analysis of the deposited data

Results flagged for a closer look

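Reads that the counting program could not assign to a single gene, called ambiguous, were not used in any comparison. Relative to reads on genes they came to 2.496% and 2.54% for the WT mice and to 3.49% and 3.66% for the DDI2-KO mice, the latter averaging 3.57% ± 0.120 (SD, n = 2) against 2.52% ± 0.0287 (SD, n = 2). They were singled out because the DDI2-KO values exceeded the WT ones. No test was made, and their part in the values of overlapping chromatin genes was not tested.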

How the results depend on the processing

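The number of chromatin genes with an adjusted p under 0.05, 3 in the comparison as reported, was 0 with library totals only, limma-voom, limma-trend, no robust estimation, length offsets, and the replicate block with length and GC offsets. It was 5 with DESeq2, 5 with length and GC offsets and 6 with no filter on low counts, settings that called 6.86%, 5.197% and 7.32% of all genes. The settings with 0 called had 2.76%, 0.993%, 1.01%, 1.11%, 1.99% and 1.72% of all genes called, in the order given. The count also changed with any library left out, and so did the share called over all genes. At an unadjusted p under 0.05 the settings with 0 called had 13, 19, 20, 18, 14 and 15 genes in the same order. Every gene called in any of these was lower. The median log2 fold change, -0.15 as reported, was -0.20 with upper-quartile factors, -0.10 with library totals only, -0.096 with length offsets, -0.10 with length and GC offsets and -0.10 with the replicate block and both offsets, and ranged from -0.23 to -0.12 with one library left out. It moved with the scaling as the median of all genes did, from -0.068 to 0.034. The median relative to the fit on length, -0.099 as reported, was -0.15 with the median transcript length of each gene, and ranged from -0.15 to -0.079 with one library left out. Among the other chromatin genes the count was 2 as reported. It was 1 with upper-quartile factors, library totals only, a mean of at least 1 CPM, length offsets, or length and GC offsets. It was 0 with limma-voom, limma-trend, no robust estimation or the replicate block with both offsets. It was 4 with the replicate block, where 8.09% of all genes were called, and 8 with no filter on low counts. It also changed with some single libraries left out. These alternatives for the other chromatin genes and Ddi2 were chosen after seeing the data. Some named genes changed sign. Kmt2d turned to 0.16 with length offsets, 0.29 with length and GC offsets and 0.29 with the replicate block and both offsets, Kdm2a to 0.0037 with length offsets, Hdac10 to 0.023 and Kmt5a to 0.012 with library totals only, and Kmt5a to 0.00074 with limma-voom. With one library left out, Dnmt1 ranged from -0.28 to 0.057, Hdac10 from -0.30 to 0.22, Hdac11 from -0.055 to 0.36, Hdac5 from -0.046 to 0.32 and Kmt5a from -0.34 to 0.35. Of 560 values of named genes under the alternatives, 508 kept direction and side of the threshold. Most of these belong to genes that were not called as reported. The 3 genes that fell lost their call in each of the settings with 0 called given above. The cause of these changes was not tested. The labels do not say whether same-numbered libraries share more than a number. The correlation between their deviations was 0.0588 over all genes tested and -0.256 over the chromatin genes tested. The replicate block gave 4 chromatin genes, Tet2 added, and 1108 genes in all against 346. A fit that leaves out a library assumes that the lone library of its group varies like the other group. The number of mice, 2 per group, limits the precision more than depth does.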

Other observations

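Chromatin genes also differed between the libraries labelled DDI2-KO themselves. Kdm3a, a demethylase induced by low oxygen and chosen after its values were seen, had 26.6 and 26.3 CPM in WT and 15.1 and 27.9 CPM in the libraries labelled DDI2-KO, so library 1 lay apart from the other 3 libraries. Its log2 fold change was -0.30 (adjusted p = 0.559 from edgeR). Sirt5, in contrast, had 16.2 CPM in library 1 and 9.18 CPM in library 2 labelled DDI2-KO.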
